A study of Mus musculus with 4 samples.

Results

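The genes described here are 34 members of the sterol and fatty acid synthesis programme that sterol regulatory element-binding proteins (SREBPs) control. They were taken by symbol from a list made with earlier results of these libraries known, and all 34 were found among the 55401 Ensembl genes of the count table. Of them 5 belong to SREBP control (Srebf1, Srebf2, Scap, Insig1 and Insig2), 19 to the sterol branch and 10 to the fatty acid branch, and all 34 passed the filter on low counts. The libraries hold poly(A) RNA of cultured macrophages (BMDM), matured from the bone marrow of C57BL/6J mice, and the labels put all 4 in batch 1. On day 1 both groups were infected with a CRISPR-Cas9 lentivirus (multiplicity of infection 30), and differentiation took 5 days. The virus targeted Adcy7, the gene of an adenylyl cyclase that makes cyclic AMP, in 2 knockout libraries, and Rosa, a locus used as a neutral target, in 2 control libraries. The comparison asks how macrophage transcripts differ once Adcy7 is targeted. The labels name no guide, clone or share of edited cells. Nothing ties the replicates to separate mice or dishes, and the p-values therefore reflect only how far these libraries differ, possibly for technical reasons.

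SREBPs are transcription factors made as precursors in the membrane of the endoplasmic reticulum. When sterols are scarce, the escort protein SCAP carries them to the Golgi, where proteases release the active part. When sterols are plentiful, INSIG proteins hold SCAP back. SREBP-2, the product of Srebf2, mainly drives cholesterol synthesis and SREBP-1, the product of Srebf1, mainly fatty acid synthesis, with overlap between them. Macrophages use the pathway for membranes and lipid mediators, and inflammatory stimuli are known to change it.

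Adcy7 (ENSMUSG00000031659) was at 59.4 and 58.8 CPM in the knockout libraries and 122 and 125 CPM in the control libraries, with values given in the order of replicates 1 and 2 here and throughout. This was 48.4% of the control level, a log2 fold change of -1.05 (SE 0.09, adjusted p = 4.24e-05) in edgeR's quasi-likelihood test, so its mRNA was lower but present. CPM are counts per 1000000 counts of the library total, which ran from 61782358 to 71914179 counts. Fold changes come from the fit over all 15832 tested genes, and a gene was called at an adjusted p under 0.05. Of these, 7400 passed, 3703 higher and 3697 lower.

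Markers of cell types differed between the groups as well. Their counts are to be read against 23.4% of all tested genes called lower and 23.4% called higher. Of 15 macrophage markers 12 were lower and 2 higher, with summed levels of 25144 to 25462 CPM in the knockout and 59922 to 61750.0 CPM in the control. Lyz2 alone made up most of these sums in both groups, so they say little about the other markers. C1qa, a complement subunit, fell from a mean of 71.7 to 0.0278 CPM, and Mrc1 and Aif1 stood at 0.0647 and 0.315 CPM in the knockout. The defining markers Lyz2, Csf1r and Adgre1 fell from means of 51284, 1809 and 1456 CPM in the control to 16454, 1237 and 876 CPM, and Cd68 did not pass, with means of 885 (control) and 925 CPM (knockout). The median log2 fold change of the 15 was -3.07, in a range from -11.12 to 0.93. The 2 markers that rose are not named here. Of 8 monocyte markers 7 were lower and 1 higher (2265 to 2824 CPM against 3454 to 3731 CPM in the control), and of 13 neutrophil markers 7 were lower and 1 higher (7927 to 9237 CPM against 9318 to 10747 CPM). Of 8 eosinophil markers 6 of the 7 tested were higher, with sums of 229.9 to 290.3 CPM against 32.1 to 35.8 CPM. Of 10 mast cell and basophil markers, with no count of Mcpt4 and Cma1 in any library, 6 of 7 tested were higher, at 62.8 to 64.6 CPM against 24.8 to 32.8 CPM. All 12 platelet markers were higher, at 1238 to 1259 CPM against 533 to 652 CPM. Of 7 tested dendritic cell markers 4 were higher and 1 lower (49.3 to 49.9 CPM against 11.6 to 12.7 CPM), and of 7 B cell markers 5 were higher and 2 lower (135 CPM in both libraries against 165 to 166 CPM, Igll1 at 0). The B cell sum fell although the median log2 fold change of the 7 was 3.51, so this sum does not describe most of these markers. Of 6 erythroid markers 4 were higher (21.1 to 26.4 CPM against 2.78 to 3.25 CPM, Car1 at 0), and of 6 stromal markers 3 were higher (44.2 to 50.4 CPM against 2.13 to 3.04 CPM, Lepr and Adipoq at 0). Of 3 tested T and NK cell markers 1 was lower (2.51 to 2.95 CPM against 3.48 to 4.29 CPM, Ncr1 and Gzma at 0). All 25 cell cycle genes were lower, from 1953 to 2043 CPM in the control to 548 to 608 CPM in the knockout. The part of these markers in the results that follow was not tested.

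Genes of sterol and fatty acid synthesis were mostly lower in the knockout libraries. Of the 34 members 26 fell, 3 rose and 5 did not pass, where 23.4% of all tested genes were called lower and 23.4% higher. In the sterol branch 16 of 19 fell and none rose, with a median log2 fold change of -0.91. In the fatty acid branch 8 of 10 fell and 1 rose, with a median of -1.02, against a median of 0.01 over all tested genes. The deepest falls were those of Elovl6, Dhcr7, Fads1, Scd2 and Fads2, and the rise of Me1 was the largest change of all members. In this bulk RNA, fewer cells that express a gene and less RNA per cell cannot be told apart.

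Both knockout libraries lay below both control libraries for 18 of 19 sterol genes, 8 of 10 fatty acid genes and 3 of 5 SREBP control genes. Among all tested genes this held for 37.8%. Both knockout libraries lay above both control libraries for 1 fatty acid gene and 2 of 5 SREBP control genes, against 37.4% of all tested genes. The groups overlapped for Hsd17b7 and Scd1. Counts of single members ran from 112 to 30028 per library.

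**Figure D1:**
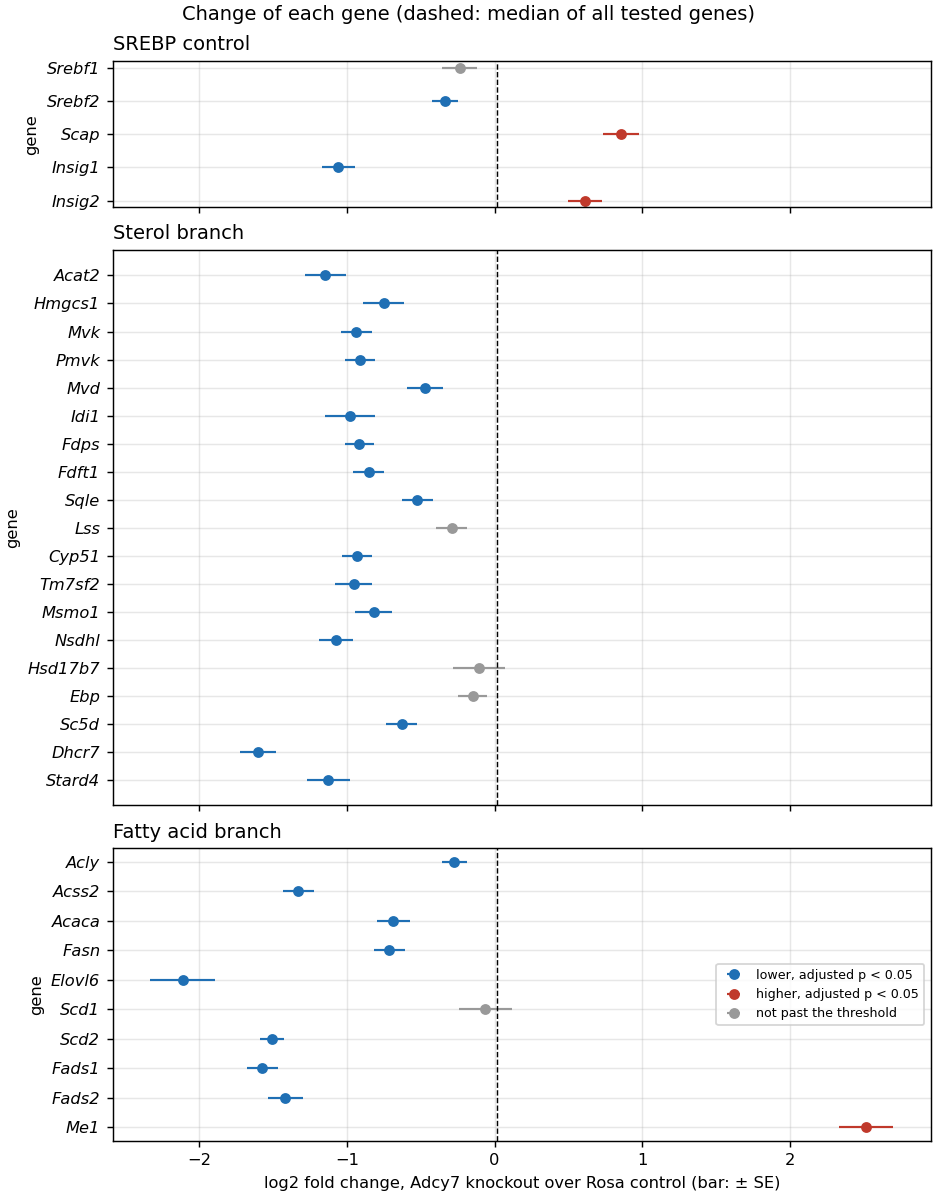
Each point is the log2 fold change of 1 gene, knockout over control, with its standard error as a bar, in pathway order within SREBP control, the sterol branch and the fatty acid branch (2 libraries a group). Blue points passed as lower, red as higher and grey did not pass; all 19 sterol genes lie left of the dashed median of all tested genes, while Scap, Insig2 and Me1 lie to the right.

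The SREBP control genes did not move as 1 group. Of the 5, Srebf2 and Insig1 fell, Scap and Insig2 rose, and Srebf1 did not pass. Insig1 (ENSMUSG00000045294), which retains SCAP and is itself a target of SREBPs, was at 22.5 and 25.3 CPM in the knockout libraries and 53.1 and 47.5 CPM in the control libraries. This was 48% of the control level, a log2 fold change of -1.06 (SE 0.11, adjusted p = 0.000125). Insig2 (ENSMUSG00000003721), the paralog with the same retaining role, was at 30.7 and 36.4 CPM in the knockout libraries and 21.1 and 23.2 CPM in the control libraries. The groups did not overlap, and the log2 fold change of 0.61 (SE 0.12, adjusted p = 0.00302) had the opposite sign to that of Insig1.

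Scap (ENSMUSG00000032485), the escort protein, was at 44.8 and 37.6 CPM in the knockout libraries and 24.1 and 22 CPM in the control libraries. The knockout level was 1.81 times that of the control, with a log2 fold change of 0.86 (SE 0.12, adjusted p = 0.000744). Srebf2 was at 148 and 143 CPM in the knockout libraries and 196 and 175 CPM in the control libraries, a small difference next to that of Insig1. Its log2 fold change of -0.33 (SE 0.09, adjusted p = 0.0153) lost the call without control replicate 1 (adjusted p = 0.194) and without control replicate 2 (adjusted p = 0.0547), which leaves Insig1 as the only SREBP control gene called lower in either case. Srebf1 was at 89.2 and 75.9 CPM in the knockout libraries and 105 and 91.3 CPM in the control libraries. Its log2 fold change of -0.24 (SE 0.12, adjusted p = 0.141) did not pass, and passed without knockout replicate 1 (adjusted p = 0.0168). The gene counts do not separate the Srebf1 transcripts of SREBP-1a and SREBP-1c.

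**Figure D2:**
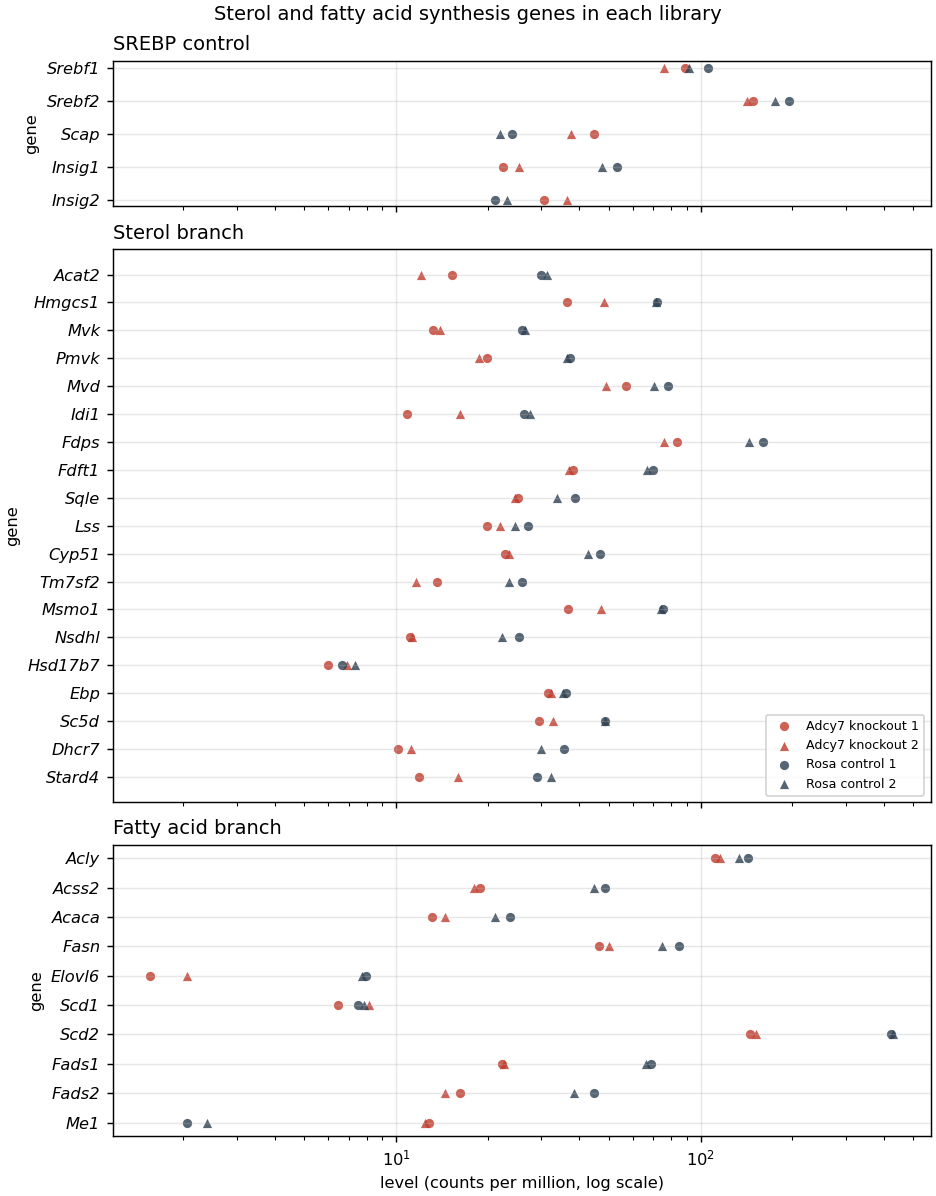
Points give the level of each gene in each of the 4 libraries, in CPM on a log axis, with knockout libraries in red and control libraries in dark blue. The red points sit left of the dark ones for most sterol and fatty acid genes, and right of them for Scap, Insig2 and Me1.

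The early sterol enzymes, which build isoprenoid units from acetyl-CoA, were lower. All 7 from Acat2 to Fdps fell, to between 45.2% (Acat2) and 72.2% (Mvd) of the control level. Hmgcs1 (ENSMUSG00000093930), the synthase that makes HMG-CoA, was at 36.3 and 48.4 CPM in the knockout libraries and 72.1 and 71.6 CPM in the control libraries. It had a log2 fold change of -0.75 (SE 0.14, adjusted p = 0.00243), and knockout replicate 2 lay above knockout replicate 1 without reaching the control libraries. Mvk, the mevalonate kinase, was at 13.2 and 14 CPM in the knockout libraries and 26 and 26.5 CPM in the control libraries, with libraries of a group close to each other and a log2 fold change of -0.94 (SE 0.10, adjusted p = 0.000163).

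Pmvk, the next kinase, and Idi1, the isomerase of the isoprenoid unit, had log2 fold changes of -0.91 (SE 0.10) and -0.98 (SE 0.17). Fdps, which makes farnesyl diphosphate, was at 83.9 and 76.1 CPM in the knockout libraries and 161 and 145 CPM in the control libraries. Its log2 fold change of -0.92 (SE 0.10, adjusted p = 0.00015) stood for 53% of the control level. Mvd, the decarboxylase between Pmvk and Idi1, was at 57 and 49 CPM in the knockout libraries and 78.3 and 70.4 CPM in the control libraries. It fell the least of these 7, with a log2 fold change of -0.47 (SE 0.12, adjusted p = 0.0124), and lost its call without control replicate 1 (adjusted p = 0.0785).

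The later enzymes, which turn farnesyl diphosphate into squalene, lanosterol and cholesterol, differed more among themselves. Of the 11 from Fdft1 to Dhcr7, 8 fell and Lss, Ebp and Hsd17b7 did not pass. Dhcr7 (ENSMUSG00000058454), the reductase of a last step of cholesterol synthesis, was at 10.2 and 11.2 CPM in the knockout libraries and 35.7 and 29.9 CPM in the control libraries. At 32.9% of the control level it fell more than any other sterol gene, with a log2 fold change of -1.60 (SE 0.12, adjusted p = 1.92e-05). Nsdhl, a dehydrogenase that removes methyl groups from the sterol ring, was at 11.1 and 11.3 CPM in the knockout libraries and 25.3 and 22.3 CPM in the control libraries, a log2 fold change of -1.07 (SE 0.11, adjusted p = 0.00013).

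Cyp51, the lanosterol demethylase, and Msmo1, the methylsterol oxidase, reached 52.5% and 56.7% of the control level. Fdft1, the squalene synthase, Tm7sf2, a sterol reductase, and Sc5d, a sterol desaturase, reached 55.4%, 51.7% and 64.6%. Sqle, the squalene epoxidase and a rate-limiting enzyme, was at 25.2 and 24.6 CPM in the knockout libraries and 38.8 and 33.7 CPM in the control libraries. Its log2 fold change of -0.52 (SE 0.11, adjusted p = 0.00452) was smaller than those of Dhcr7 and Nsdhl. The groups did not overlap for any of these genes.

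Lss, which closes the sterol ring, was at 19.9 and 22 CPM in the knockout libraries and 27.2 and 24.6 CPM in the control libraries. The groups did not overlap, yet its log2 fold change of -0.29 (SE 0.11, adjusted p = 0.0518) did not pass in the fit of all genes. It passed without knockout replicate 2 (adjusted p = 0.0296). Ebp, a sterol isomerase, was at 31.5 and 32.4 CPM in the knockout libraries and 36.3 and 35.3 CPM in the control libraries, with a log2 fold change of -0.15 (SE 0.10, adjusted p = 0.251). Hsd17b7, a ketosteroid reductase, was at 5.97 and 6.91 CPM in the knockout libraries and 6.64 and 7.33 CPM in the control libraries, a log2 fold change of -0.11 (SE 0.18, adjusted p = 0.664), and its groups overlapped. A change of this size was not detectable in 2 libraries a group. Stard4, which carries cholesterol between membranes and is not an enzyme, was at 11.9 and 16 CPM in the knockout libraries and 29 and 32.2 CPM in the control libraries. It fell to 45.9% of the control level, with a log2 fold change of -1.12 (SE 0.15, adjusted p = 0.000416).

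Genes of the fatty acid branch that supply acetyl-CoA and build palmitate were lower by varied amounts. Acly, which makes cytosolic acetyl-CoA from citrate, was at 111 and 116 CPM in the knockout libraries and 143 and 134 CPM in the control libraries. It had a log2 fold change of -0.27 (SE 0.08, adjusted p = 0.0279), and its call was lost without control replicate 1 (adjusted p = 0.253) and without control replicate 2 (adjusted p = 0.146). Acss2 (ENSMUSG00000027605), which makes acetyl-CoA from acetate, was at 18.8 and 18 CPM in the knockout libraries and 48.7 and 44.8 CPM in the control libraries. At 39.8% of the control level, with a log2 fold change of -1.33 (SE 0.11, adjusted p = 2.52e-05), it fell further than Acly, and the difference between the genes was not tested.

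Fasn, the fatty acid synthase, was at 46.3 and 49.9 CPM in the knockout libraries and 84.8 and 74.4 CPM in the control libraries, a log2 fold change of -0.71 (SE 0.11, adjusted p = 0.000859). Acaca, the acetyl-CoA carboxylase before it, was at 13.2 and 14.5 CPM in the knockout libraries and 23.8 and 21.2 CPM in the control libraries, a log2 fold change of -0.69 (SE 0.11, adjusted p = 0.0014). These were 61.1% and 62.2% of the control level, a smaller fall than that of Acss2.

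Of the genes that lengthen and desaturate fatty acids, Elovl6, Scd2, Fads1 and Fads2 fell and Scd1 did not pass. Elovl6 (ENSMUSG00000041220), the elongase of palmitate, was at 1.56 and 2.06 CPM in the knockout libraries and 8 and 7.76 CPM in the control libraries. At 23.1% of control it was the deepest fall of the members, a log2 fold change of -2.11 (SE 0.22, adjusted p = 0.000117), at a low level. Scd2 (ENSMUSG00000025203), a stearoyl-CoA desaturase that makes monounsaturated fatty acids, was at 145 and 152 CPM in the knockout libraries and 423 and 429.7 CPM in the control libraries. This was 35.2% of control, with libraries of each group close together and a log2 fold change of -1.51 (SE 0.08, adjusted p = 3.18e-06), the smallest adjusted p of the members.

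Scd1 (ENSMUSG00000037071), the paralog with the same reaction, was at 6.47 and 8.14 CPM in the knockout libraries and 7.51 and 7.86 CPM in the control libraries. Its groups overlapped, and the log2 fold change of -0.06 (SE 0.18, adjusted p = 0.805) did not pass. Without knockout replicate 1 it was 0.078 (adjusted p = 0.773). Fads1 and Fads2, the desaturases of polyunsaturated fatty acid synthesis, lie together on chromosome 19, as do Scd1 and Scd2. Fads1 was at 22.2 and 22.6 CPM in the knockout libraries and 68.6 and 66.1 CPM in the control libraries, a log2 fold change of -1.57 (SE 0.10, adjusted p = 9.57e-06). Fads2 was at 16.2 and 14.5 CPM in the knockout libraries and 44.6 and 38.5 CPM in the control libraries, a log2 fold change of -1.42 (SE 0.12, adjusted p = 3.39e-05). They stood at 33.6% and 37.4% of the control level, with no overlap of the groups.

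Me1 (ENSMUSG00000032418), the cytosolic malic enzyme that yields NADPH for fatty acid synthesis and is also a known target of the stress factor NRF2, moved the other way. It was at 12.8 and 12.4 CPM in the knockout libraries and 2.05 and 2.39 CPM in the control libraries. The knockout level was 5.73 times that of the Rosa libraries, with a log2 fold change of 2.52 (SE 0.18, adjusted p = 1.64e-05). Of the 34 members it was the one synthesis gene that rose.

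The 2 branches were contrasted by counts and sums. At least a 2-fold fall was called for 4 of 19 sterol genes (Acat2, Nsdhl, Dhcr7 and Stard4) and 5 of 10 fatty acid genes (Acss2, Elovl6, Scd2, Fads1 and Fads2), and for 9.87% of all tested genes. Sterol genes had log2 fold changes from -1.60 to -0.11. Fatty acid genes ran from -2.11 to 2.52, where Me1 alone set the upper end and Scd1 (-0.06) came next. No fatty acid gene lay between Fasn (-0.71) and Acss2 (-1.33), the middle pair that sets the median.

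Summed over the branch, sterol genes stood at 493 and 511 CPM in the knockout libraries and at 896 and 849 CPM in the control libraries. The fatty acid sum was 394 and 409.6 CPM against 854 and 827 CPM. Knockout sums were thus 57.5% of control for sterol genes and 47.8% for fatty acid genes. The ratio of the fatty acid to the sterol sum was 0.799 and 0.802 in the knockout and 0.954 and 0.974 in the control. Scd2 alone made up 49.6% and 52% of the fatty acid sum in the control libraries and 36.9% and 37.1% in the knockout libraries. Without Scd2 the ratio was 0.504 and 0.505 in the knockout and 0.481 and 0.467 in the control, so the direction of the difference turned. That smaller sum still holds Me1, which rose (knockout 12.8 and 12.4 CPM, control 2.05 and 2.39 CPM). The turn therefore does not show that the remaining fatty acid genes fell less than the sterol genes. A ratio that also leaves out Me1 was not calculated. With 2 libraries a group an exact permutation test cannot go below p = 0.333, and the branches are set side by side without a test.

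**Figure D3:**
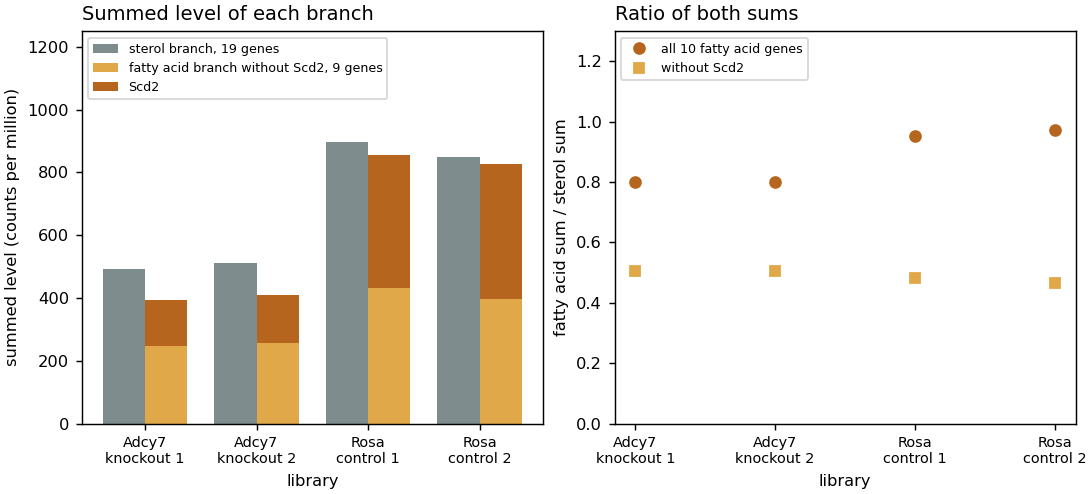
Left, bars give the summed CPM of the 19 sterol genes and of the 10 fatty acid genes in each library, with Scd2 as the upper part of the fatty acid bar. Right, the ratio of the fatty acid to the sterol sum is shown per library with and without Scd2. The ratio is lower in the knockout with Scd2 and slightly higher without it, and Me1 is counted in both versions.

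Levels can be compared between genes only per length, and counts were divided by the length of each gene's merged exons in another build, which makes these values approximate. In the control Scd2 stood highest, at 78.1 CPM per kb, followed by Mvd, Fdps (36.3), Acly (26.2) and Srebf2 (25.8). Me1, Elovl6, Acaca, Hsd17b7 and Scd1 stood lowest, at 0.577, 1.22, 1.31, 1.37 and 1.57 CPM per kb. Scd2 stood above Scd1 in both groups, with 27.2 CPM per kb in the knockout against 1.49 for Scd1. In the knockout Mvd, at 28.5 CPM per kb, and Scd2 lay close together, and Me1 stood at 3.28 CPM per kb, above Scd1.

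Promoter sequences show what letters members share. The members were listed as genes under SREBPs, so their motifs may not be independent of that choice. Of the 34 members 27 matched the RefSeq promoter table of build GRCm38.p6, which gives the bases from 250 before to 50 after a start, with 36 promoters for them and 32851 in all. Motifs were searched on both strands. The letters TCACNCCAC, a form of the sterol regulatory element that SREBPs bind, were in 1 of 36 member promoters, that of Hmgcs1, and in 1.24% of all promoters. CCAAT, the box bound by NF-Y, a partner of SREBPs, was in 14 of 18 sterol promoters, 4 of 8 fatty acid promoters and 5 of 10 promoters of SREBP control genes. It was in 37.4% of all promoters and in 37.8% of those of tested genes.

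GGGCGG, the box of Sp1, was in 15 of 18 sterol promoters, 4 of 8 fatty acid promoters and 8 of 10 promoters of SREBP control genes, against 35.7% of all promoters and 59.8% of those of tested genes. CACGTG, an E-box that SREBP-1 can also bind, was in 3 of 18, 0 of 8 and 3 of 10, against 7.15% and 9.66%. These matches are descriptions, and a promoter without the letters may hold other forms of a site or one outside the window. Hmgcs1 is shown because it holds the sterol regulatory element letters, Insig1, Nsdhl and Acss2 as an SREBP control, a sterol and a fatty acid gene that fell, and both Me1 starts as the synthesis gene that rose. The last 4 genes were chosen after their values were seen. Capitals mark any of the 4 motifs on either strand, and adjacent matches run together. In Hmgcs1 the letters TCACCCCAC lie at -137 to -129 from the start site, between CCAAT boxes read on the opposite strand as ATTGG.
Hmgcs1 (chr13:119690101-119690400, plus strand): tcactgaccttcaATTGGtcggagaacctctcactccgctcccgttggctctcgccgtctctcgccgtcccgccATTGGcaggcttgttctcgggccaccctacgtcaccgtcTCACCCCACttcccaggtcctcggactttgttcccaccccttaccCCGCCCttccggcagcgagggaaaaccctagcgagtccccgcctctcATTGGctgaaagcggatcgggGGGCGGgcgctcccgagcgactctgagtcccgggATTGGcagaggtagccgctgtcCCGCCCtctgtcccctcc
Insig1 (chr5:28071162-28071461, plus strand): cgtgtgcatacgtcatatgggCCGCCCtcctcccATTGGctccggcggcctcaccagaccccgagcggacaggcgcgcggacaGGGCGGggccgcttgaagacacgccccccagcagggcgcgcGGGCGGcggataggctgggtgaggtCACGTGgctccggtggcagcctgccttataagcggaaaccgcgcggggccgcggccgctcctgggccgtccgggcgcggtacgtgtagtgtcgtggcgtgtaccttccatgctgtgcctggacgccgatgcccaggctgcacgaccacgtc
Nsdhl (chrX:72918271-72918570, plus strand): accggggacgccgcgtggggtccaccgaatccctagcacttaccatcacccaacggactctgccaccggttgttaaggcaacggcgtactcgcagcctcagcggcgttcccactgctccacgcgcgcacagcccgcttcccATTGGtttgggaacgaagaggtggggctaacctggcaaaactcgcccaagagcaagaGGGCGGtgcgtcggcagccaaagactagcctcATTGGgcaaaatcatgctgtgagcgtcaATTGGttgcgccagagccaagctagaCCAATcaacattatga
Acss2 (chr2:155517793-155518092, plus strand): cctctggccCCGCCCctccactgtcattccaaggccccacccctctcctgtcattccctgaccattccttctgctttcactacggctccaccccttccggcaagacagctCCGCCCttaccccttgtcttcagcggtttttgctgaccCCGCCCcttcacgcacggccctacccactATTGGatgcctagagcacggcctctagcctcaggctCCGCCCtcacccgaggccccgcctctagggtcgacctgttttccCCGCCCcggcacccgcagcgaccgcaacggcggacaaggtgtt
Me1 start 1 (chr9:86695865-86696164, minus strand): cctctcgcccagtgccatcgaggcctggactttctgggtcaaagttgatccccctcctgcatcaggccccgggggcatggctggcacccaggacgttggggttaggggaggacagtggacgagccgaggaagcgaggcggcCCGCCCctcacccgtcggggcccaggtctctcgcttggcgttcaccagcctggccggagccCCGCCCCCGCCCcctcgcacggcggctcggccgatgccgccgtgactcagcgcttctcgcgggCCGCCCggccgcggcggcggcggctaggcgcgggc
Me1 start 2 (chr9:86687228-86687527, minus strand): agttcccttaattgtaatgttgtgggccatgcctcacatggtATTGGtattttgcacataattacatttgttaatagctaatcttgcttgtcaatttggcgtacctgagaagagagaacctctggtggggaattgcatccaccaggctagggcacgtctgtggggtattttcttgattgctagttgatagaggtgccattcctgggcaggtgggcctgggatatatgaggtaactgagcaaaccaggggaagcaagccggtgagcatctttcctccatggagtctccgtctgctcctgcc

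The other lists of pathway genes are read against the same 23.4% of all tested genes called lower and 23.4% called higher. Of 10 genes of SREBP processing and turnover, 1 rose and 1 fell, with a median log2 fold change of 0.17. Mbtps2, the site-2 protease that releases SREBPs, was at 21.4 and 23.6 CPM in the knockout libraries and 16.4 and 15.2 CPM in the control libraries, a log2 fold change of 0.53 (SE 0.11, adjusted p = 0.00427). It lost its call without control replicate 2 (adjusted p = 0.052). Erlin1, a membrane protein that binds cholesterol and holds SREBPs back, fell with a log2 fold change of -0.50 (SE 0.14, adjusted p = 0.02), and lost its call without the same library (adjusted p = 0.145). Paqr3, a Golgi anchor of SCAP, had a log2 fold change of 0.72 (SE 0.28, adjusted p = 0.0683) and did not pass.

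Of the isoprenoid side branches, 10 of 12 listed genes were tested, and 3 fell and 1 rose, which is near or below the share among all tested genes. Lbr, a lamin receptor that is also a sterol reductase with the reaction of Tm7sf2, was at 21.6 and 29.5 CPM in the knockout libraries and 52.1 and 48.6 CPM in the control libraries, a log2 fold change of -0.97 (SE 0.15, adjusted p = 0.000899). Tm7sf2 had a log2 fold change of -0.95 (SE 0.13). Coq2 of ubiquinone synthesis, Fnta of protein prenylation and Nus1 of dolichol synthesis had log2 fold changes of -0.37, -0.32 and 0.29 (SE 0.10, 0.10 and 0.09). These 3 passed with adjusted p of 0.0188, 0.034 and 0.0345, and none of them passed without control replicate 1 (adjusted p of 0.087, 0.117 and 0.268) or without control replicate 2 (adjusted p of 0.123, 0.216 and 0.153). Nus1 also lost its call without knockout replicate 1 (adjusted p = 0.0898) and with no low-count filter (adjusted p = 0.064).

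Of 14 genes that sense, move or dispose of sterols 6 rose and 4 fell, against 23.4% and 23.4% of all tested genes, and the share that fell is near that background. Ch25h, which makes 25-hydroxycholesterol, an oxysterol known to hold SREBPs back, was at 26.4 and 21.9 CPM in the knockout libraries and 1.25 and 1.1 CPM in the control libraries. It rose 20.8-fold, a log2 fold change of 4.38 (SE 0.18, adjusted p = 8.82e-07). Abca1, an exporter of cholesterol and a target of the oxysterol receptor LXR, was at 101 and 112 CPM in the knockout libraries and 14 and 12.4 CPM in the control libraries, a log2 fold change of 3.03 (SE 0.12, adjusted p = 7.19e-07). Elsewhere in the list Mylip rose (log2 fold change 0.65, adjusted p = 0.00395), Abcg1 fell (-0.39, adjusted p = 0.0246) and Lpcat3 did not pass (-0.06, adjusted p = 0.685). LXR activity was not measured. Npc1, which moves cholesterol out of lysosomes, was at 243 and 231 CPM in the knockout libraries and 117 and 113 CPM in the control libraries, a log2 fold change of 1.06 (SE 0.09, adjusted p = 2.82e-05). Cyp27a1, which makes 27-hydroxycholesterol, fell instead, from 9.53 and 8.9 CPM to 0.445 and 0.55 CPM, a log2 fold change of -4.20 (SE 0.24, adjusted p = 4.2e-06). Ch25h and Cyp27a1, both of oxysterol synthesis, had opposite directions. Whether any of these changes bears on the synthesis genes was not tested.

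Of 25 listed genes that supply, activate or lengthen fatty acids, 22 were tested, of which 10 fell and 7 rose, against 23.4% and 23.4% of all tested genes, with a median of -0.23. Mid1ip1, a protein that activates acetyl-CoA carboxylase, was at 51.9 and 46.1 CPM in the knockout libraries and 133 and 123 CPM in the control libraries. It fell with Acaca and Fasn, with a log2 fold change of -1.37 (SE 0.11, adjusted p = 2.32e-05). Idh1, the cytosolic isocitrate dehydrogenase that yields NADPH, was at 71.4 and 80.6 CPM in the knockout libraries and 208 and 252 CPM in the control libraries, a log2 fold change of -1.59 (SE 0.12, adjusted p = 1.99e-05). It had the opposite direction to Me1, the other NADPH source named here.

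Hacd4, a dehydratase of the elongation cycle, was at 16.4 and 23.7 CPM in the knockout libraries and 133 and 129 CPM in the control libraries, a log2 fold change of -2.70 (SE 0.16, adjusted p = 5.53e-06). Of the other Hacd genes listed, Hacd2 fell too (log2 fold change -1.02), while Hacd1 (0.96) and Hacd3 (0.64) rose. Acsl1, which activates long-chain fatty acids, rose from 83.5 and 87.9 CPM to 531 and 591 CPM, or 6.61-fold, a log2 fold change of 2.73 (SE 0.09, adjusted p = 3.95e-07). Its direction was opposite to that of Fasn and Acaca. Of the other Acsl genes listed, Acsl4 (log2 fold change 0.99) and Acsl5 (0.42) rose and Acsl3 (-0.65) fell.

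**Figure D4:**
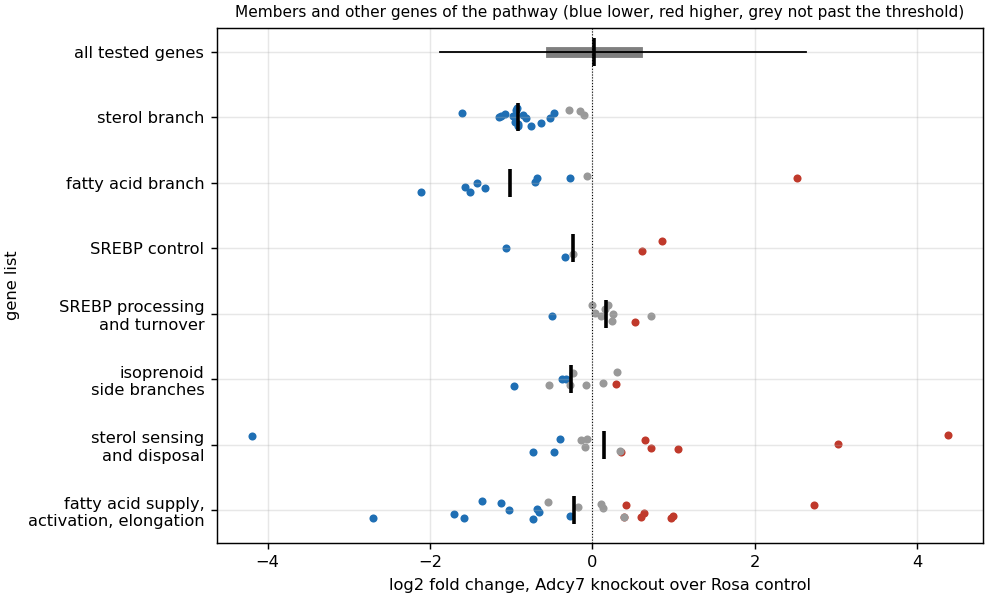
Points are the log2 fold changes of tested genes in each list (blue lower, red higher, grey not past the threshold) with the list's median as a black tick. The top row gives all tested genes as median, middle 50% (thick) and 5% to 95% range (thin). All sterol genes lie to the left of that median, and the lists of sterol disposal and fatty acid supply spread to both sides.

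Reads that fit more than 1 gene make some members uncertain. Of the longest transcript's 50-base windows, another annotated gene also held 52.6% for Acaca, 45.9% for Acat2, 32.8% for Me1, 30.7% for Fdft1 and 30.5% for Idi1. For Fdps, Hmgcs1 and Scap the share was 11.7%, 13.6% and 13.1%, and for the other 26 members it was below 10%, with 4.66% for Scd1 and 4.01% for Scd2. Acat3, the copy of Acat2, was at 2.6 and 2.2 CPM in the knockout and 2.3 and 0.873 CPM in the control. Tcp1, which also shares windows with Acat2, was at 188 and 201 CPM in the knockout and 219.9 and 221 CPM in the control, above Acat2, with a log2 fold change of -0.16 that did not pass (adjusted p = 0.131). Gm5182, a copy of part of Acaca, was at 3.3 and 2.86 CPM in the knockout and 3.86 and 3.82 CPM in the control, and the copies of Me1 had at most 35 counts over all libraries.

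Fdft1 overlaps the strongly expressed protease gene Ctsb on the other strand by 774 exonic bases. Ctsb was at 7586 and 6721 CPM in the knockout and 7871 and 7526 CPM in the control, and without a known strand setting a part of Fdft1 counts may come from it. Ctsb had a log2 fold change of -0.09 that did not pass (adjusted p = 0.513). Scap and Hmgcs1 overlap antisense genes by 985 and 557 exonic bases. These antisense genes, 5830462I19Rik and Gm48342, had only 23 and 3 counts over all libraries. On its own strand Tm7sf2 shares 532 bases with Vps51, which had a log2 fold change of -0.42, and Fdps shares 1124 bases with Gm43738, which had no count. Gm3571, which shares windows with Fdps, was at 5.21 and 3.82 CPM in the knockout and 10.5 and 10.4 CPM in the control, with a log2 fold change of -1.19 (adjusted p = 0.00168). Gm13502, which shares windows with Idi1, was at 0.501 and 0.825 CPM in the knockout and 1.64 and 1.33 CPM in the control. Its log2 fold change of -1.15 did not pass (adjusted p = 0.0506).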

How the data were processed

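Poly(A) RNA of 4 macrophage libraries, 2 Adcy7 knockout and 2 Rosa control, was analysed from 1 table of estimated counts (expected counts) per Ensembl gene, deposited as whole numbers whose library totals differ, so no normalization by the authors is visible. The submitters' processing notes name build GRCm39 and the tools HISAT2, fastp, edgeR and StringTie. Versions, settings, annotation release and strand handling were not given in the sources used here. Multiples of 4 made up 31.3% of low counts. Part of this share arises among any whole numbers, and that part was not calculated. It may be that 1 fragment stands for several counts, and the true depth may then be lower. Columns were matched to titles by KO or Rosa and the replicate number, and what the digit in KO3 means is not given.

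Symbols came from GENCODE M21 (GRCm38) by Ensembl ID, with 55141 of 55401 IDs matched. After filterByExpr and TMM scaling, genes were tested in edgeR 4.0.16 (glmQLFit, glmQLFTest, 2 residual degrees of freedom, two-sided, Benjamini-Hochberg adjustment over all 15832 tested genes) in R 4.3.3. The standard error is the log2 fold change divided by the root of the test's F. CPM use the full library totals, and fold changes also the TMM factors. DESeq2 1.42.0 and voom of limma 3.58.1 were alternatives. Named genes were Adcy7, all members, and up to 4 tested genes with the smallest adjusted p from each other pathway list. Mylip, Abcg1, Lpcat3 and the further Hacd and Acsl genes were added after their values were seen. Members, lists and tests were chosen with earlier results of these data known. Replicates of a group correlated at 0.993 (knockout) and 0.994 (control) across genes on log2(CPM + 0.5), and groups at up to 0.943, with genes not being independent replicates. Protein sequences were not used here, and not every gene of the pathway is reported.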

Additional observations from a re-analysis of the deposited data

How the results depend on the processing

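Over 14 alternatives, 466 of 476 values of single members kept their direction and their side of the threshold, 5 lost a call, 4 gained one and 1 changed sign. The last was Scd1, which passed in none of these fits, with a log2 fold change of -0.20 to 0.078 when each library was left out, positive without knockout replicate 1. The losses were Srebf2, Mvd and Acly when a control library was left out, and the gains Lss and Srebf1, with Lss also passing with a filter of 1 CPM in 2 libraries (adjusted p = 0.047) and with counts divided by 4 (adjusted p = 0.0497). The sterol median was -0.89 with upper quartile scaling, and -0.91 to -0.84 when each library was left out, while the fatty acid median was -1.08 to -0.96. The count of SREBP control genes called lower was 1 to 3 in these fits, with 1 without either control library. The genes passing in all numbered 5850 to 7677, lowest without control replicate 1, and no scaling moved the median of all genes by over 0.1. With 1 library in a group, its spread is assumed to be that of the other group. A replicate block gave 7045 passing genes and changed no member's call, and deviations of libraries with the same number correlated at 0.0148 across genes, so the numbers were not taken as pairs. A robust quasi-likelihood fit, added after the data were seen, gave 7505. Depth limits Elovl6 and Me1 most, with the lowest counts.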
